A study of Rattus norvegicus with 28 samples.

Results

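The histamine receptors Hrh1 and Hrh3 were followed on custom oligonucleotide arrays of rat brain stem, midbrain and spinal cord, as every array feature that the platform annotation assigns to either gene. There were 3 such features among 228: feature 93 for Hrh1 (annotated with accession D12800), feature 95 for Hrh3 (AB015646) and feature 9, also annotated as Hrh3 (AY044153). The gene identifier of features 93 and 95 is in the rat RefSeq gene table, whereas that of feature 9 is not, so feature 9 is given apart from feature 95 throughout. Each of 28 arrays compared RNA from injected male rats, in the Alexa 647 channel, with RNA of the same region from uninjected rats, in the Alexa 546 channel, and gave 1 log2 ratio for each feature. The rats had been injected into the left hindpaw on postnatal day 3, with carrageenan (0.25%), a polysaccharide that inflames the paw, or with saline, and were kept until day 59 in cages of like-treated animals. The groups were PAG carrageenan (5 arrays), PAG saline (5), RVM carrageenan (5), RVM saline (4), and the left (5) and right (4) lumbar dorsal horn (LDH) of carrageenan-injected rats. PAG and RVM are the usual abbreviations of the periaqueductal grey and the rostral ventromedial medulla. No dorsal horn array was of a saline-injected rat.

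Histamine in the brain is made by neurons of the posterior hypothalamus, whose axons reach most of the brain and the spinal cord; outside neurons it comes mainly from mast cells. The H1 receptor, encoded by Hrh1, couples to Gq proteins and excites the neurons that carry it. The H3 receptor, encoded by Hrh3, couples to Gi/o proteins and sits largely on axon terminals, where it limits the synthesis and release of histamine as an autoreceptor and the release of other transmitters as a heteroreceptor. The PAG and RVM form a descending pathway that controls the transmission of pain in the dorsal horn. Both receptors belong to the amine receptors, together with those for serotonin, noradrenaline and dopamine.

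A ratio above 0 is read here as higher after injection, the likely direction, because channel 1 held the injected side on every array; the deposited values do not state it, and the dyes were never swapped, so dye and injection cannot be told apart in any mean against 0. With the ratio turned, every signed value and every order of groups below would reverse, while sizes and p-values would stay. An exact 0 was taken as not measured, which applied to 3566 of 6384 values. Arrays measured between 7 and 195 features, fewest on LDH right (median 55) and most on PAG carrageenan (median 157). The values are ratios within a region, so they give no level of either receptor and no order of levels between regions. Of the marker genes listed for mast cells, microglia, astrocytes, oligodendrocytes, endothelium, neurons and histaminergic neurons, 0 were on the array, so the labelled tissue and its make-up of these cell types could not be checked, and fewer cells of a type cannot be told from less RNA per cell. Of the 4 markers of serotonergic neurons only Slc6a4, the serotonin transporter, was there. Its ratio was 0.88 in PAG carrageenan (limma adjusted p = 0.0224 against uninjected), where 11 of 78 features (14.1%) passed. It did not pass under quantile normalization, where 0 of 78 (0%) did. With the PAG carrageenan arrays alone 1 of 155 features (0.645%) passed, one with a ratio below 0. In PAG saline the Slc6a4 ratio was 0.48, a difference of 0.39 (95% interval -0.21 to 1.00, limma adjusted p = 0.432) whose part in the Hrh3 values was not tested. No label says that arrays of a group came from separate rats, so the spread behind each p-value is that between arrays and may be technical.

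Hrh3, on feature 95, was measured on 26 of 28 arrays and was the only 1 of the 3 features with enough values for a test (at least 3 measured arrays in each group). Counting itself, 12 of the 228 features were measured on as many arrays. Its ratio lay above 0 on 21 arrays and below 0 on 5, between -0.34 and 1.28 with a median of 0.16. Its spread within groups was small: the pooled SD was 0.29, against a median of 0.60 over the 58 features measured on at least 20 arrays, and only 7 of those had a smaller one. Of these 58 features, 2 had a larger share of values above 0 than Hrh3 (80.8%, against a median of 60.4%), and 6 had a larger share on either side of 0, which does not depend on the direction.

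By group, the 5 PAG carrageenan arrays gave Hrh3 ratios of 0.19, -0.002, 0.012, -0.249 and 0.015. The 4 PAG saline arrays that measured it gave 0.132, 0.447, 0.885 and 1.281. The carrageenan values thus lay around 0 and the saline values above it, with a narrow overlap, since the highest carrageenan array exceeded the lowest saline array. The RVM carrageenan arrays gave 0.121, 0.103, 0.217, 0.3 and 0.12, and the RVM saline arrays 0.057, 0.734, 0.637 and 0.366. All 9 RVM values were above 0; the carrageenan arrays were close together, and 3 of the 4 saline arrays were above each of them. In the dorsal horn the left side gave 0.344, -0.34, 0.187, 0.422 and 0.02, and the 3 measured arrays of the right side 0.325, -0.002 and -0.138. The ranges of both sides overlapped almost entirely.

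The order of the group means of Hrh3 feature 95 ran from PAG saline (0.69 ± 0.50, SD, n = 4) through RVM saline (0.45 ± 0.30, n = 4), RVM carrageenan (0.17 ± 0.08, n = 5), LDH left (0.13 ± 0.30, n = 5) and LDH right (0.06 ± 0.24, n = 3) to PAG carrageenan (-0.0068 ± 0.16, n = 5). Both saline groups were at the top, or at the bottom if the ratio runs the other way. None of the 5 steps between neighbours in this order exceeded the larger SD of the pair. That sets the steps against the spread of single arrays and is not a test of whether neighbours differ.

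**Figure D1:**
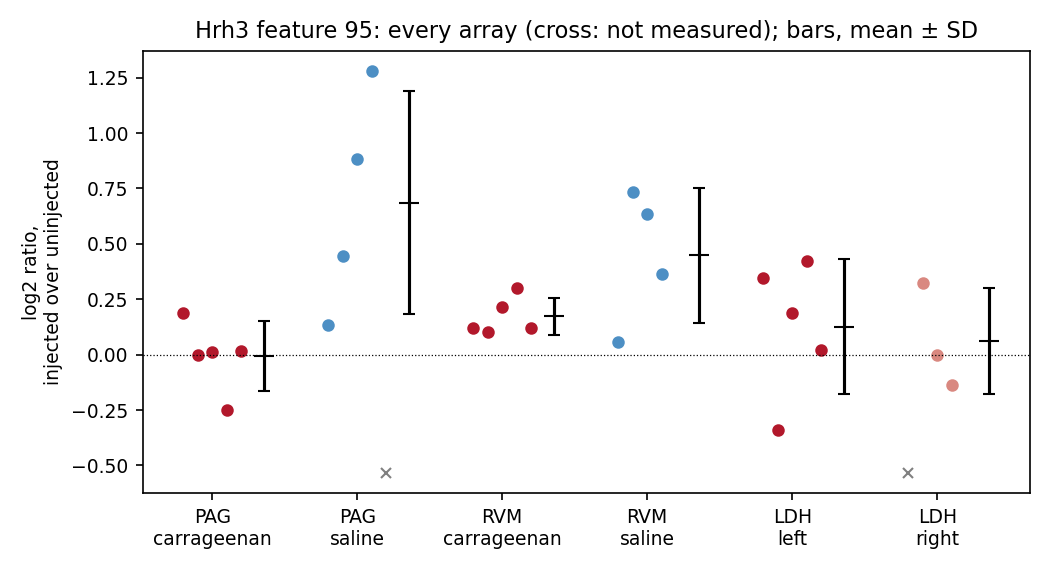
Log2 ratio of Hrh3 feature 95 (vertical axis, injected over uninjected) on each array of the 6 groups; points are arrays, a grey cross at the bottom marks an array that did not measure it, and the black bars give the mean ± SD. The PAG saline arrays reach 1.281, while the PAG carrageenan arrays lie between -0.249 and 0.19.

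The first comparison asked whether neonatal inflammation, as opposed to the injection itself, altered Hrh3 in the adult PAG. The Hrh3 ratio was lower after carrageenan than after saline by 0.69 on the log2 scale (difference -0.69, 95% interval -1.23 to -0.16). This did not pass: by limma the unadjusted p was 0.0171 and the adjusted p 0.333, and the exact two-sided permutation test gave p = 0.0159 (adjusted p = 0.265). Hrh3 ranked 4 by p among 78 features, of which 0 (0%) passed and 10 had an unadjusted p below 0.05. Read as ranks within each array, Hrh3 stood between the 72.3 and 98.4 percentile of the measured features on the saline arrays and between the 37.0 and 60.5 percentile on the carrageenan arrays. Those ranges did not overlap, which was so for 4 of the 78 features (5.13%). Under quantile normalization the difference was -1.52 (adjusted p = 0.364 by limma). The number of measured features moved with the comparison (86 to 181 on the carrageenan arrays, 33 to 95 on the saline arrays), and its part in the result was not tested.

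The same comparison in RVM gave a difference of the same sign and smaller size. Hrh3 was at 0.17 ± 0.08 after carrageenan and 0.45 ± 0.30 after saline, a difference of -0.28 (95% interval -0.63 to 0.07; limma adjusted p = 0.543; exact permutation p = 0.0952). Of 56 features, 0 (0%) passed and 4 had an unadjusted p below 0.05. Under quantile normalization the sign turned (0.11, adjusted p = 0.909). Whether the carrageenan effect differed between PAG and RVM was tested as an interaction, which was -0.42 (95% interval -1.01 to 0.18, limma adjusted p = 0.532). Of 48 features, 0 (0%) passed and 3 had an unadjusted p below 0.05. Under quantile normalization the interaction was -1.63, with an unadjusted interval that excluded 0 (-3.02 to -0.24, limma adjusted p = 0.316). Leaving out single arrays gave -0.60 to -0.22, the smallest without PAG saline array 4. The largest, without PAG saline array 1, had an interval of -1.14 to -0.07 and did not pass either (limma adjusted p = 0.335). The data thus do not separate a larger effect in PAG from an equal one in both regions.

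Because both differences had the same sign, their mean over PAG and RVM was also estimated, a comparison chosen after the values were seen. Averaged over both regions, Hrh3 was 0.48 lower on the log2 scale after carrageenan than after saline (-0.48, SE 0.14, 95% interval -0.78 to -0.19). It did not pass (limma adjusted p = 0.157), and 0 of 48 features (0%) did; 4 had an unadjusted p below 0.05. Since the shared sign prompted the estimate, it adds no support to either difference. The mean stayed below 0 under every alternative run, from -0.71 to -0.39. It passed when PAG saline array 1, the lowest PAG saline value, was left out (-0.58, limma adjusted p = 0.0165; 1 of 45 features, 2.22%).

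Regions were also compared within a treatment. Among saline arrays, Hrh3 differed between PAG and RVM by 0.24 (95% interval -0.43 to 0.90, limma adjusted p = 0.787). Of 72 features, 0 (0%) passed and 7 had an unadjusted p below 0.05. Under quantile normalization this difference was 1.29 (95% interval -0.31 to 2.88, limma adjusted p = 0.578). Without PAG saline array 4 the saline difference was 0.04, without RVM saline array 1 it was 0.11, and without PAG saline array 1 it was 0.42. Among carrageenan arrays the difference was -0.18 (95% interval -0.43 to 0.07; limma adjusted p = 0.629; 0 of 59 features, 0%, passed and 3 had an unadjusted p below 0.05), and the exact permutation test of that difference gave p = 0.0317 (adjusted p = 0.624). In the dorsal horn, Hrh3 on the left, the side of the injection, and on the right differed by 0.06 (95% interval -0.50 to 0.63; limma adjusted p = 0.856), with 0 of 29 features (0%) passing and 0 at an unadjusted p below 0.05. The interval is wide, so the dorsal horn arrays do not show that both sides were alike. Without LDH left array 4 the sign turned (-0.0089).

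**Figure D2:**
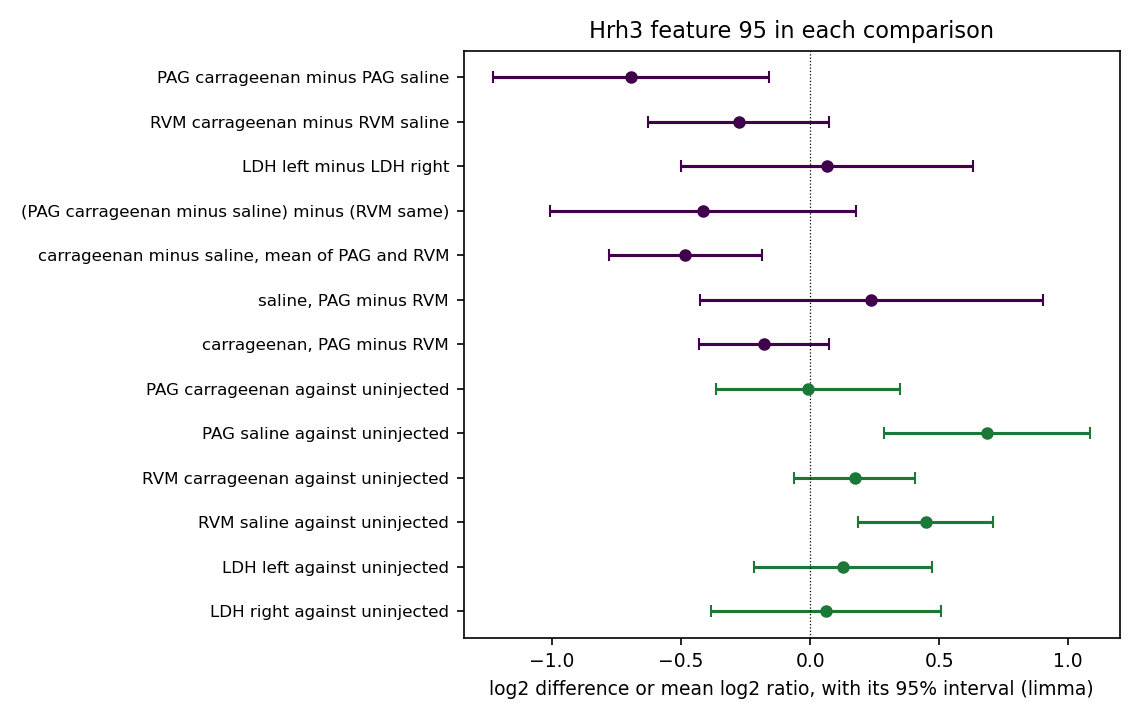
Hrh3 feature 95 in 13 comparisons (rows): the point is the log2 difference between groups (purple) or the mean log2 ratio of a group (green), and the bar its unadjusted 95% interval from limma. The intervals of the PAG difference, of the mean of both regions, and of both saline groups against uninjected exclude 0 before adjustment.

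Against the uninjected rats, the mean Hrh3 ratio as deposited lay farthest from 0 in the saline-injected groups, above 0 in the likely direction and below it if the ratio is turned. In PAG saline its mean ratio of 0.69 corresponds to 1.61-fold (95% interval 0.29 to 1.08 on the log2 scale). All 4 measured arrays were above 0. By limma the unadjusted p was 0.00393 and the adjusted p 0.153, with 0 of 78 features (0%) passing and 9 at an unadjusted p below 0.05; with all 6 groups in 1 fit the adjusted p was 0.0135 (1 of 78 features, 1.28%, passed), and with the PAG saline arrays alone it was 0.324 (95% interval 0.07 to 1.30). Under quantile normalization the mean was 1.53 in PAG saline (limma adjusted p = 0.0752) and 0.24 in RVM saline (adjusted p = 0.517). In that setting RVM carrageenan, at 0.35 (limma adjusted p = 0.230), lay farther from 0 than RVM saline. In RVM saline the mean of 0.45 corresponds to 1.36-fold (95% interval 0.19 to 0.71), again above 0 on 4 of 4 arrays (limma adjusted p = 0.0572), where 3 of 56 features (5.36%) passed. With the RVM saline arrays alone the limma p was 0.0626 before adjustment (adjusted p = 0.248). Hrh3 passed without RVM saline array 1 (0.58, limma adjusted p = 0.0115; 3 of 49 features, 6.12%). It also passed without RVM saline array 4 (0.48, adjusted p = 0.0439; 9 of 43 features, 20.9%) and without RVM carrageenan array 5 (0.45, adjusted p = 0.0491; 4 of 34, 11.8%), so that call hangs on single arrays. Exact sign-flip tests add little, since 4 arrays cannot give a p below 0.125, which both groups had.

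In the carrageenan groups the mean Hrh3 ratio was nearer to 0, except in RVM under quantile normalization. It was -0.0068 in PAG carrageenan (95% interval -0.36 to 0.35, limma adjusted p = 0.991), where 11 of 78 features (14.1%) passed and Hrh3 ranked 76 by p; under quantile normalization 0 of 78 (0%) passed and 16 had an unadjusted p below 0.05. In RVM carrageenan it was 0.17 (95% interval -0.06 to 0.41, limma adjusted p = 0.964), above 0 on 5 of 5 arrays, and 1 of 56 features (1.79%) passed. With the RVM carrageenan arrays alone the limma p was 0.0331 before adjustment (adjusted p = 0.504). In LDH left the mean ratio was 0.13 (95% interval -0.22 to 0.47, limma adjusted p = 0.554) and in LDH right 0.06 (95% interval -0.38 to 0.51, limma adjusted p = 0.879). On either side 0 of 29 features (0%) passed, and 5 and 1 had an unadjusted p below 0.05. The LDH left mean was 0.24 without array 2, 0.05 without array 4 and 0.07 without array 1. A passing result in one group and a missing one in another is not a difference between them; those differences are the comparisons given above.

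Hrh1, the excitatory Gq-coupled receptor, was measured on only 10 of 28 arrays, and each of these 10 ratios was above 0. Of the 121 features with 10 or more measured values, Hrh1 was the only 1 with every value above 0, and 3 had every value below 0. In RVM saline it was measured on 4 of 4 arrays, at 2.193, 1.489, 2.203 and 1.194. In PAG carrageenan it was measured on arrays 1, 4 and 5, at 6.181, 3.22 and 0.237. These values spread over a far wider range than those of RVM saline. In LDH left it was measured on arrays 2 and 4, at 1.808 and 1.829, and in RVM carrageenan on array 3 alone, at 0.225. It was not measured on any of the 5 PAG saline arrays or the 4 LDH right arrays, so Hrh1 entered no test between groups.

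**Figure D3:**
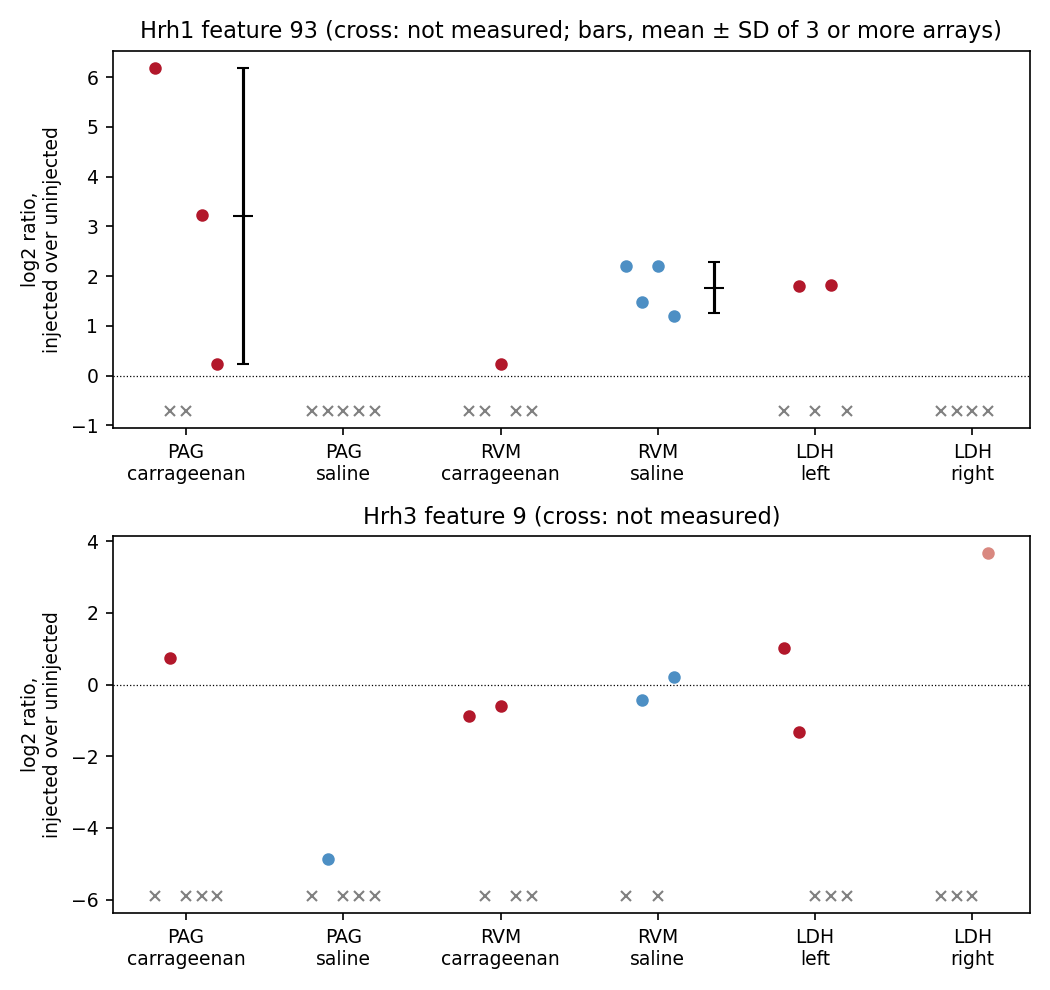
Log2 ratio (vertical axes, injected over uninjected) of Hrh1 feature 93 (top) and Hrh3 feature 9 (bottom) on each array of the 6 groups; grey crosses at the bottom mark arrays without a value, and black bars give the mean ± SD where 3 or more arrays had one. The 10 Hrh1 values are all above 0, whereas feature 9 has 4 above and 5 below.

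The mean Hrh1 ratio in RVM saline was 1.77 ± 0.51 (SD, n = 4), or 3.41-fold over uninjected. In a limma fit of the RVM saline arrays alone, which was added once the values were known, the 95% interval was 1.10 to 2.44 and the unadjusted p 0.00158, and the adjusted p of 0.0654 did not pass; 1 of 127 features (0.787%) did. Under quantile normalization in that same fit, Hrh1 passed (1.43, adjusted p = 0.028), as 1 of 3 features of 127 (2.36%). In PAG carrageenan the mean was 3.21 ± 2.97 (SD, n = 3), with an interval from -0.60 to 7.03 in a fit of its own arrays (limma adjusted p = 0.244), where 1 of 155 features (0.645%) passed. The single RVM carrageenan value of 0.225 was below all 4 RVM saline values, and with 1 array this difference of -1.54 has no test.

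Hrh1 was measured more often on arrays that measured more features, which holds for the average feature by construction. Of the 14 arrays with at least 100 measured features, 9 measured Hrh1, and of the 14 with fewer, 1 did. The relation was not strict: PAG carrageenan arrays 2 and 3, with 157 and 151 features, did not measure it, while array 5 did with 86. The number of measured features also differed between groups. The pattern in RVM, present on 4 of 4 saline arrays and at most 1 of 5 carrageenan arrays, was shared by 13 of the 228 features (5.70%). In PAG, a value on at least 3 carrageenan arrays and on 0 saline arrays occurred for 36 features (15.8%). RVM carrageenan arrays 1 and 3 measured 108 and 110 features, and only array 3 measured Hrh1, while RVM saline array 1 measured it with 100 features. Taking the unmeasured values as a ratio of 0 gave a difference of -1.72 between RVM carrageenan and saline (limma adjusted p = 0.00514; 4 of 228 features, 1.75%, passed) and an adjusted p of 0.00054 for RVM saline against uninjected (8 of 228, 3.51%, passed). That setting enters a missing value as no change, which the arrays do not show.

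**Figure D4:**
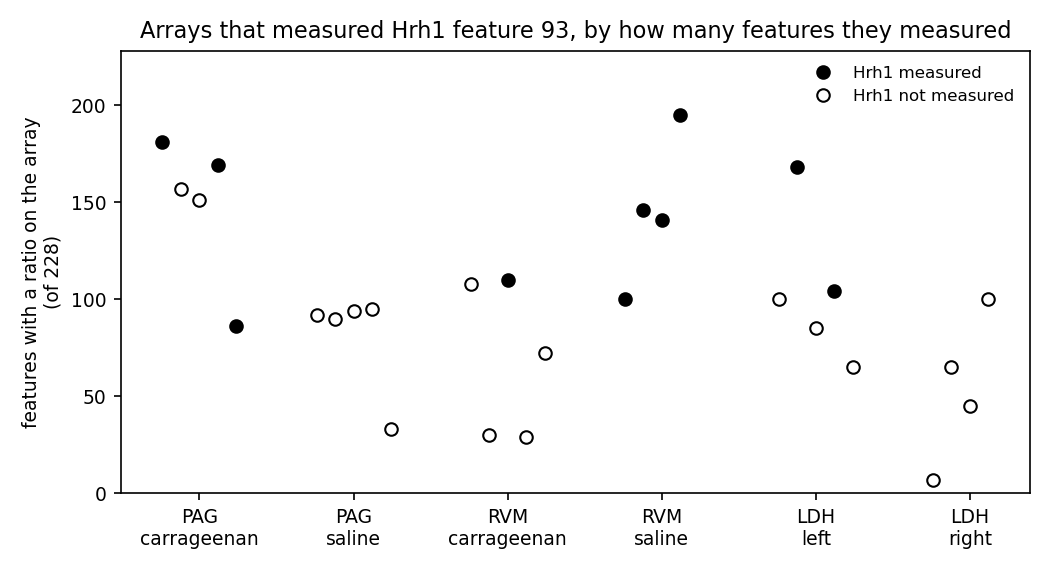
Number of features with a ratio on each array (vertical axis, of 228) for the 6 groups; filled circles are arrays that measured Hrh1 feature 93 and open circles those that did not. All 4 RVM saline arrays measured it, at 100 to 195 features, and 1 array below 100 features did, PAG carrageenan array 5 with 86.

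Feature 9, the other feature annotated as Hrh3, had 9 values, from -4.873 in PAG saline array 2 to 3.679 in LDH right array 4. It was at 0.738 on PAG carrageenan array 2. In RVM it was at -0.869 and -0.61 on carrageenan arrays 1 and 3, and at -0.432 and 0.217 on saline arrays 2 and 4. Both carrageenan values were thus the lower ones, with a difference of means of -0.63 that reached an adjusted p of 0.711 when 2 measured arrays per group sufficed (limma). In LDH left it was at 1.031 and -1.316 on arrays 1 and 2.

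No relation between the features across arrays passed a test. On the 9 arrays with both Hrh3 features, feature 9 and feature 95 had the same sign on 3. Pearson's r was -0.32 (exact permutation p = 0.407) and Spearman's rho -0.15 (exact permutation p = 0.708). Without the 2 arrays with the most extreme feature 9 values r was 0.33, so the sign of the relation rested on those 2 arrays. Taken as deviations from the group mean, r was 0.73 over the 6 arrays of groups with more than 1 such array. Each of these groups had 2, whose deviations mirror each other, so the 6 points hold fewer independent values. Whether both Hrh3 features vary alike was not settled by these 9 arrays. For Hrh1 and Hrh3 feature 95, over 10 arrays, r was -0.11 (permutation p = 0.777) and rho -0.10 (permutation p = 0.784). It was -0.20 without the 2 arrays most extreme in Hrh1 and 0.12 within groups. After adjustment over these 2 relations the p-values of r were both 0.777. Hrh1 and feature 9 shared only 4 arrays.

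The array also held Hrh2 and Hrh4. Hrh2, the Gs-coupled receptor, had only 2 values, 0.976 on PAG carrageenan array 1 and -0.231 on LDH left array 2. Hrh4, found mainly on immune cells, had 13 values, from -2.539 to 5.869, of which 6 were above 0. Its 2 highest values were 5.555 in RVM carrageenan and 5.869 in LDH right, each the only value of its group. Where it could be tested, between PAG saline (-1.13 ± 1.52, SD, n = 3) and RVM saline (-0.65 ± 1.39, n = 4), it differed by -0.48 (95% interval -2.91 to 1.94, limma adjusted p = 0.929). Of the 11 genes listed for histamine synthesis, breakdown, transport and reception, the 4 receptors were the ones on the array.

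Other amine receptors were taken from lists by their G protein. Gi-coupled amine receptors, the class of Hrh3, had 5 of their 10 features tested in PAG. Of these, 3 were higher and 2 lower after carrageenan, with a median difference of 0.43. The median over all 78 features was 0.14, 46 of them higher. Hrh3 itself was not on this list and is not in its counts. Adra2a, a noradrenaline receptor, went both ways on its features: 1.83 on feature 32 (95% interval -0.56 to 4.22) and -0.19 on feature 33 (95% interval -0.58 to 0.20). Htr5b, a serotonin receptor, differed by 1.16 (95% interval -0.63 to 2.95). In RVM 4 of 5 were lower after carrageenan, with a median of -0.12, and 35 of all 56 features were lower with a median of -0.097. Hrh3 was lower in both regions, as was Adra2a feature 33 (-0.55 in RVM, 95% interval -1.15 to 0.05); in the mean over both regions that feature differed by -0.37 (95% interval -0.68 to -0.06, limma adjusted p = 0.309). Among Gq-coupled amine receptors, the class of Hrh1, 2 of 6 features were tested in PAG and in RVM, 1 in each direction in both. Of the other amine receptors and transporters, 3 of 3 were higher after carrageenan in PAG (median 0.66) and 2 of 2 were lower in RVM (median -0.55). No feature of these lists passed in either comparison. In the dorsal horn 2 Gi-coupled features were tested, 1 in each direction.

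The features of other genes whose ratios ran most like Hrh3 feature 95 over arrays were named by Spearman's rho among 91 features measured together with it on at least 12 arrays. They were Gabrd, the delta subunit of the GABA-A receptor (feature 73, rho 0.49 over 20 arrays, permutation p = 0.0301, adjusted p = 0.549), Gabbr1, a GABA-B receptor subunit (feature 76, rho 0.41 over 25 arrays, permutation p = 0.0432, adjusted p = 0.617) and Adra2a (feature 33, rho 0.40 over 21 arrays, permutation p = 0.0725, adjusted p = 0.788). Pearson's r was 0.37 (permutation p = 0.108), 0.47 (permutation p = 0.0169) and 0.04 (permutation p = 0.857). Without the 2 arrays most extreme in Hrh3, r fell to 0.18, 0.14 and 0.06, and within groups it was -0.0047, 0.27 and -0.20. Like Hrh3, Gabrd had higher means in PAG saline (2.94) and RVM saline (1.55) than in PAG carrageenan (-1.21) and RVM carrageenan (-0.53). Too few arrays measured it to test PAG, and in RVM the difference did not pass (-2.08, limma adjusted p = 0.850). Since Gabrd was picked for its likeness on these same arrays, the shared order adds no support. Adra2a feature 33 had that order too. Gabbr1 had it in PAG, but in RVM its mean was lower after saline (-1.08) than after carrageenan (-0.26). Over all 91 features rho ran from -0.73 to 0.49 with a median of -0.10, so the strongest relation was a negative one, and none passed adjustment (smallest adjusted p = 0.199 for rho, with 7 features at an unadjusted p below 0.05).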

How the data were processed

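The deposited table holds the authors' log2 ratios, with a single value for each feature on an array. Base 2 was inferred from the range of the values. Scanning, filtering, background correction and normalization are not given in the sources used here. Per the labels' protocols, 5 µg of RNA per sample was reverse transcribed. Features were named from the platform annotation and a rat RefSeq gene table (GRCr8); no coordinates or probe sequences are given. No pair of arrays was a duplicate: at most 4.17% of jointly measured features had equal values.

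Comparisons across all features used limma 3.58.1 in R 4.3.3 (linear model with moderated, two-sided statistics by eBayes) on the groups compared, or of both groups of the region for a mean against 0. A feature entered with at least 3 measured arrays in each group, with Benjamini-Hochberg adjustment over the features of a comparison (threshold 0.05). The fits were tested on simulated data. Exact tests enumerated all arrangements; correlations over 10 or more arrays used 100000 permutations (SciPy 1.17.1). The number of arrays limits the precision.

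The features, lists and comparisons were chosen with earlier results of these data known. Genes named were the histamine receptors, the 3 features most like Hrh3 feature 95 (Hrh1 and feature 9 had fewer than the 12 arrays required), and at most 3 features of each list by p (Adra2a feature 33, in both, was also followed). Alternatives were median centring, quantile normalization, all 6 groups in 1 fit, at least 2 arrays per group, array weights, robust variance, zeros kept as 0, arrays with fewer than 40 features left out, each array left out, the exact test and a replicate block; fits of a group alone were added after seeing the data.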

Additional observations from a re-analysis of the deposited data

How the results depend on the processing

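Of 282 values under alternatives, over 20 results, 269 kept their direction and their side of the threshold, 8 moved past the threshold and 5 turned sign. For part of the 269, the direction or the side was fixed beforehand. Leaving out an array of the other group cannot turn a mean against 0. PAG saline stayed at 0.69 without any single PAG carrageenan array. The sign-flip tests against 0 could not pass, since their smallest possible p ran from 0.0625 to 0.25. Exact tests also reuse the main estimate. Group results of Hrh1 and of the other Hrh3 feature had no main p-value and were counted as not passing. Quantile normalization turned Hrh3 feature 95 in RVM (carrageenan minus saline, 0.11) and in PAG carrageenan against uninjected (0.0025); array weights also turned the latter (0.025), and each array left out in turn gave -0.056 to 0.054. Leaving out each array gave -0.0089 to 0.18 for LDH left minus right, 0.35 to 0.58 for RVM saline against uninjected and -0.58 to -0.39 for the mean of PAG and RVM. Past the threshold were PAG saline against uninjected with all 6 groups in 1 fit (0.69), and Hrh1 with zeros kept as 0 (1.77 in RVM saline, -1.72 for RVM carrageenan minus saline) or with quantile normalization in the RVM saline arrays alone (1.43). The others were Hrh3 feature 95 with single arrays left out, as given above: 3 for RVM saline against uninjected and 1 for the mean of PAG and RVM. The cause was not tested, except that zeros kept as 0 add values that the arrays did not measure.

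Same-numbered carrageenan and saline arrays did not deviate together (r from -0.332 to 0.334 in PAG and from -0.0574 to 0.228 in RVM), and no label pairs them. Between the left and right dorsal horn r was -0.779 (over 7 features), -0.0364, -0.121 and -0.188. Between PAG and RVM it ran from -0.437 to 0.271 for saline and from -0.109 to 0.189 for carrageenan. Whether different regions or sides came from the same rats is not stated, and the main fits took all arrays as independent. With the replicate block Hrh3 differed by -0.70 in PAG (adjusted p = 0.515), -0.26 in RVM, 0.028 in LDH, -0.42 in the interaction and -0.48 in the mean of both regions, and by 0.24 and -0.18 between regions in saline and carrageenan. By limma the block left 0 features called, except 1 of 48 in the interaction, which was not a histamine receptor. A feature without a ratio on an array gives no value there, which limits Hrh1 and Hrh3 feature 9.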
